A study of Mus musculus with 14 samples.

Results

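The genes described here take fatty acids into the muscle cell, release them from stored fat, carry them into mitochondria and oxidise them. They are 32 genes named by symbol for their part in this route, in 7 roles: 5 uptake genes, 2 acyl-CoA synthetases, 2 lipases, 4 genes of the carnitine shuttle, 12 genes of beta-oxidation, 3 genes of electron transfer and 4 genes linked to the choice of fuel. All 32 were found among the 24559 gene symbols on the array, and each was read from its 1 probe with the highest mean signal over the 14 arrays. The tests covered 14161 genes, those with a probe well above background throughout 1 or more of the 4 groups. All 32 genes were well above background on all 14 arrays, and 0 of them were saturated on any array.

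Fatty acids reach a muscle fibre bound to albumin or in lipoproteins, which lipoprotein lipase cuts open at the capillary wall. Inside the fibre they are bound by a carrier protein, coupled to coenzyme A, passed into the mitochondrion as carnitine esters and shortened step by step by the enzymes of beta-oxidation, whose electrons enter the respiratory chain through the electron transfer flavoprotein. Slow-twitch fibres are known to rest on this route more than fast glycolytic fibres do. Fasting and exercise raise several of its genes through the PPAR family of nuclear receptors, among them Pdk4, which holds back the oxidation of glucose.

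The tissues were the soleus, a slow-twitch hind limb muscle, with 4 arrays of Ts1Cje mice and 4 of WT mice, and the fast-twitch extensor digitorum longus of the same limb (EDL), with 3 arrays of Ts1Cje mice and 3 of WT mice. Ts1Cje mice carry part of distal chromosome 16 in an extra copy and are used to model Down syndrome, and WT stands for disomic littermates, with both genotypes on C57BL/6. RNA was measured in bulk muscle, so that fewer cells of a type and less RNA per cell cannot be told apart. The age, sex and feeding state of the mice are not given in the sources used here. No probe of the 32 genes lies on chromosome 16, and 1 of them, that of Acot2, lies on chromosome 12, to which the extra segment is joined in Ts1Cje.

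On each array 41.3% to 52.9% of probes exceeded background well, and arrays of the same group correlated at 0.979 to 0.988 across genes. Sod1, a gene of the triplicated segment, differed between Ts1Cje and WT by 1.09 ± 0.12 in soleus (log2 difference ± SE, limma adjusted p = 0.0032) and by 0.86 ± 0.14 in EDL (limma adjusted p = 0.0995), and Dnah11, which lies outside that segment, was well above background on 7 Ts1Cje arrays and 0 WT arrays. All slow fibre markers tested, 12 of 12, were called higher in soleus than in EDL in both genotypes, and 11 of 12 fast fibre markers were called lower. Of the 2 slides, the first carried the 6 EDL arrays together with replicate 1 of Ts1Cje soleus, and the second carried the remaining 7 soleus arrays, so that muscle and slide can be set apart through 1 soleus array only. On how the samples are related, the labels say only that they came from littermate pairs. The p-values of the main fit measure the spread between arrays within groups, with no term for pairs.

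Most of the 32 genes were higher in soleus than in EDL. Levels are given as log2 of the signal relative to the 75th percentile of the array, so that 0 stands for the level of that percentile and a difference of 1 for a doubling, and a gene was called at a Benjamini-Hochberg adjusted p under 0.05 in limma over all 14161 genes. In Ts1Cje mice 23 of the 32 genes were called higher in soleus and 1 was called lower, where 12.4% of all genes tested were called higher and 17.5% lower. In WT mice 20 were called higher and 1 lower, where 9.77% of all genes were called higher and 20.1% lower. The main fit had no term for pairs. With same-numbered arrays as pairs, 17 were called higher and 1 lower in WT mice, where 1184 of 14161 genes were called higher and 2375 lower. The median difference of the 32 genes was 0.81 in Ts1Cje mice and 0.59 in WT mice, beside -0.015 and -0.073 over all genes tested. The same 19 genes were called higher in both genotypes, and Acsl6 was the gene called lower in both. How many of all genes were called in both genotypes was not counted, so these counts have no share beside them. The 19 reference genes of the citric acid cycle, the respiratory chain and the mitochondrial pool gave 0 higher calls in either genotype and 3 lower calls in each, with medians of 0.0083 in Ts1Cje and -0.13 in WT mice.

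**Figure D1:**
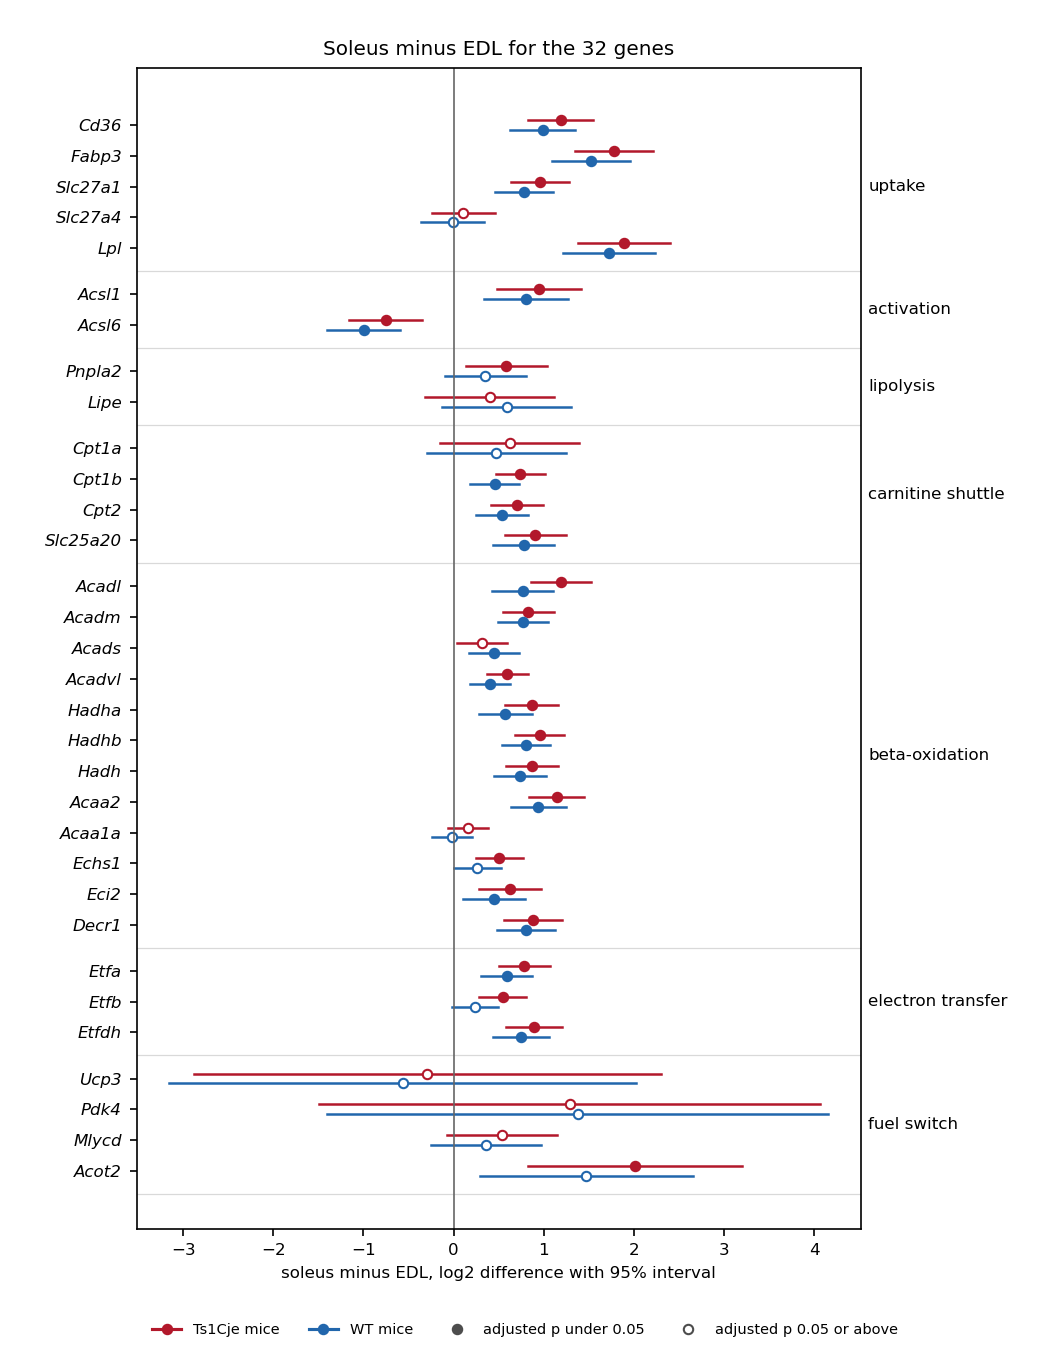
Soleus minus EDL difference of each of the 32 genes in Ts1Cje mice (red) and WT mice (blue), on a log2 scale with 95% intervals, grouped by role; filled points passed the adjusted p threshold of 0.05. Nearly all points lie to the right of 0, Acsl6 and Ucp3 lie to the left in both genotypes, Acaa1a and Slc27a4 lie just to the left in WT mice, and the intervals of Pdk4 and Ucp3 are the widest.

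With slide as a fixed block in the fit, 18 of the 32 genes were called in Ts1Cje mice, all higher, and 6 in WT mice, all higher, with medians of 0.93 and 0.75. With that block 811 of all 14161 genes were called higher and 1260 lower in Ts1Cje mice. In WT mice 386 were called higher and 985 lower. Within slide 1, where soleus Ts1Cje replicate 1 stood against 3 EDL Ts1Cje arrays, the median of the 32 genes was 0.93, beside -0.014 over all genes. The 6 called in WT mice with the slide block were Cd36, Fabp3, Slc25a20, Acadm, Hadhb and Acaa2. The share of higher calls among all called genes was 32.8% in WT mice, and 43.7% where arrays were scaled to the median of the probes above background on all arrays.

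Lpl and Fabp3, both uptake genes, had the largest differences among the genes called in both genotypes. Fabp3, the fatty acid carrier protein of heart and slow muscle, lay at 10.24, 9.79, 9.84 and 9.72 in soleus of Ts1Cje mice, against 8.15, 7.67 and 8.51 in EDL of Ts1Cje mice. In WT mice Fabp3 lay at 9.75, 9.93, 9.46 and 9.98 in soleus, against 8.22, 8.47 and 8.07 in EDL. Every soleus array was above every EDL array, and the difference was 1.79 ± 0.20 (SE) in Ts1Cje mice, 3.45-fold with adjusted p = 3.68e-05, and 1.53 ± 0.20 in WT mice, 2.88-fold with adjusted p = 0.000127. The second Fabp3 probe gave 1.88 in Ts1Cje and 1.57 in WT mice. Lpl encodes lipoprotein lipase, which frees fatty acids from circulating triglycerides. It lay at 7.20, 7.60, 7.36 and 7.56 in Ts1Cje soleus, against 5.47, 5.04 and 6.10 in Ts1Cje EDL. The WT values of Lpl were 7.34, 7.75, 7.17 and 7.48 in soleus, against 5.84, 5.31 and 5.98 in EDL. The groups did not overlap, with soleus 3.71-fold higher in Ts1Cje mice (adjusted p = 8.02e-05) and 3.31-fold higher in WT mice (adjusted p = 0.000174). With slide as a fixed block the WT call of Lpl was lost (limma adjusted p = 0.0587).

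Cd36, the main fatty acid transporter of the fibre surface, lay at 4.42, 4.49, 4.36 and 3.98 in Ts1Cje soleus, against 3.35, 2.91 and 3.12 in Ts1Cje EDL. It lay at 4.18, 4.31, 3.82 and 4.33 in WT soleus, against 3.39, 3.05 and 3.07 in WT EDL, which is 2.28-fold higher in soleus of Ts1Cje mice and 1.98-fold higher in soleus of WT mice (adjusted p = 0.000205 and 0.000841). Slc27a1 encodes the transport protein FATP1, an acyl-CoA synthetase of muscle. Its levels were 3.36, 3.51, 3.44 and 2.98 in Ts1Cje soleus, against 2.24, 2.27 and 2.56 in Ts1Cje EDL. In WT mice Slc27a1 was at 3.26, 3.23, 2.94 and 3.42 in soleus, against 2.38, 2.55 and 2.35 in EDL, and both differences were called (0.96 ± 0.15 in Ts1Cje and 0.78 ± 0.15 in WT mice). Slc27a4, a second protein of that family, ranged from 0.34 to 0.77 in Ts1Cje soleus and from 0.32 to 0.70 in Ts1Cje EDL. Its groups overlapped in both genotypes, and the difference was 0.11 in Ts1Cje mice (interval -0.24 to 0.46) and -0.0085 in WT mice (interval -0.36 to 0.34).

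**Figure D2:**
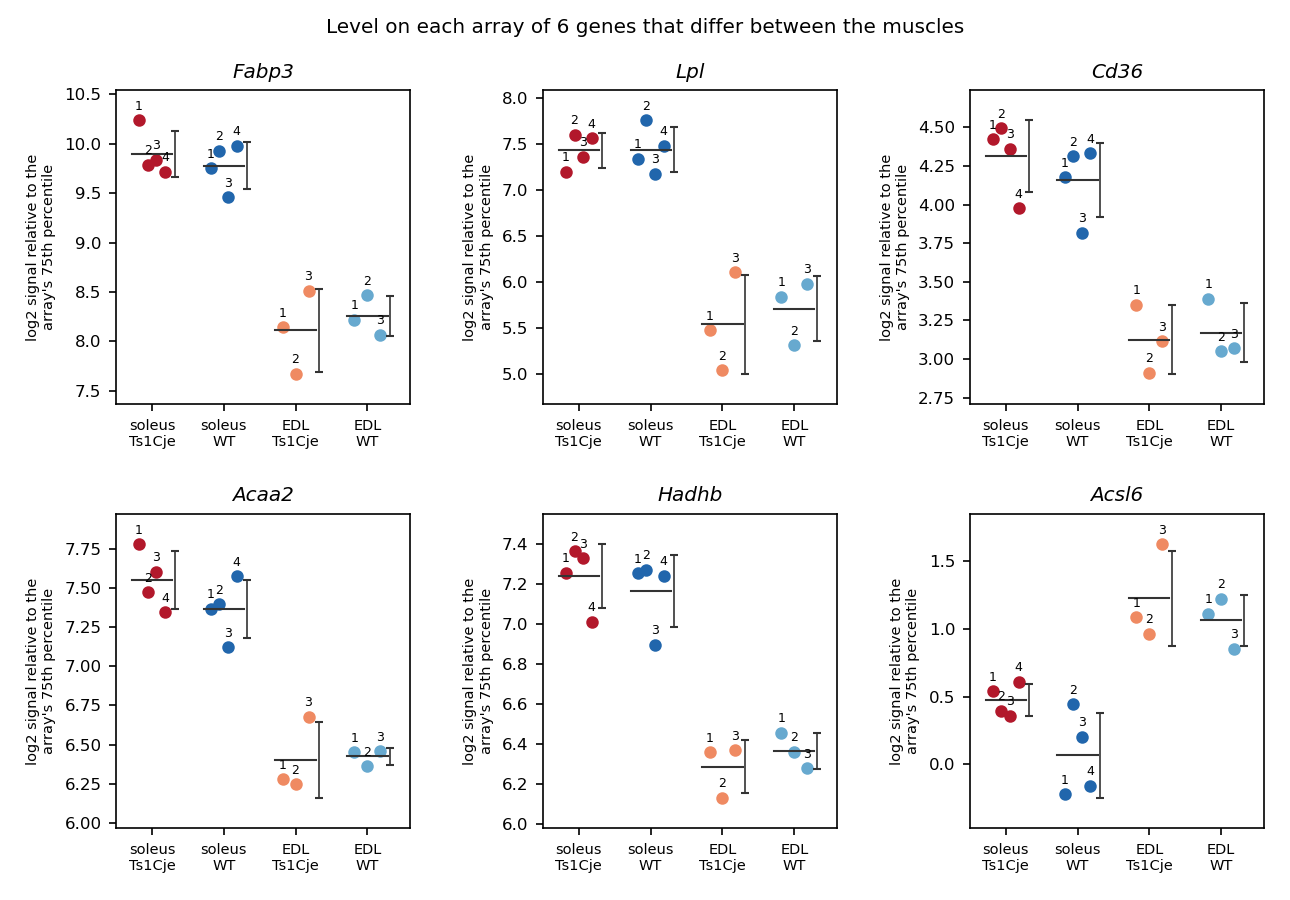
Level of 6 genes on each of the 14 arrays, as log2 signal relative to the 75th percentile of the array, for soleus and EDL of Ts1Cje and WT mice; numbers are replicates, horizontal lines are group means and error bars are SD. Fabp3, Lpl, Cd36, Acaa2 and Hadhb lie above all EDL arrays on every soleus array, and Acsl6 lies below all EDL arrays on every soleus array.

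The 2 acyl-CoA synthetases, which couple fatty acids to coenzyme A, went opposite ways. Acsl1, the main isoform of muscle and fat, lay at 6.74, 6.65, 6.43 and 6.10 in Ts1Cje soleus, against 5.68, 5.32 and 5.58 in Ts1Cje EDL. Its WT levels were 6.42, 6.36, 5.89 and 6.91 in soleus, against 5.79, 5.49 and 5.49 in EDL. Soleus was 1.93-fold higher in Ts1Cje mice (adjusted p = 0.0053) and 1.75-fold higher in WT mice (adjusted p = 0.0132), with no overlap. Acsl6, best known from brain, lay at 0.54, 0.39, 0.36 and 0.61 in Ts1Cje soleus, against 1.09, 0.96 and 1.63 in Ts1Cje EDL, and at -0.22, 0.44, 0.20 and -0.16 in WT soleus, against 1.11, 1.22 and 0.85 in WT EDL. Every soleus array was below every EDL array, with a difference of -0.75 ± 0.19 in Ts1Cje mice (adjusted p = 0.00936) and -0.997 ± 0.19 in WT mice (adjusted p = 0.00166). A second, dimmer Acsl6 probe (mean signal 11.8, against 155 for the probe used) gave -1.85 in Ts1Cje mice and -0.71 in WT mice. Its WT difference did not pass the threshold (limma adjusted p over probes of 0.0652). The Acsl6 call was lost in both genotypes with slide as a fixed block.

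Of the 2 lipases 1 was called, in Ts1Cje mice alone. Pnpla2 encodes adipose triglyceride lipase, which starts the breakdown of lipid droplets. It lay at 6.16, 6.85, 6.75 and 6.17 in Ts1Cje soleus, against 6.18, 5.75 and 5.77 in Ts1Cje EDL, and the groups overlapped. The difference of 0.58 ± 0.21 in Ts1Cje mice was called at an adjusted p of 0.0495, a call that was lost in 7 of 15 other settings. It was also lost in 4 of 7 fits that left out an array (limma adjusted p = 0.144 without EDL Ts1Cje replicate 2, 0.132 without EDL replicate 3, 0.122 without soleus replicate 2 and 0.123 without soleus replicate 3). In WT mice the difference was 0.35 ± 0.21 (adjusted p = 0.222). Lipe, the hormone-sensitive lipase, was not called in either genotype and ranged from -2.04 to -0.49 in Ts1Cje soleus and from -1.73 to -1.25 in Ts1Cje EDL.

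The carnitine shuttle passes acyl groups over the inner mitochondrial membrane, and 3 of its 4 genes were called higher in soleus in both genotypes. Of all genes tested 12.4% were called higher in Ts1Cje mice and 9.77% in WT mice. Cpt1b, the muscle carnitine palmitoyltransferase of the outer membrane, lay at 5.30, 5.57, 5.68 and 5.38 in Ts1Cje soleus, against 4.79, 4.60 and 4.84 in Ts1Cje EDL. In WT mice Cpt1b was at 5.18, 5.30, 5.09 and 5.44 in soleus, against 4.86, 4.64 and 4.88 in EDL, so that the difference was 0.74 ± 0.12 in Ts1Cje and 0.46 ± 0.12 in WT mice. The WT call of Cpt1b was lost with same-numbered arrays as pairs (0.39, limma adjusted p = 0.0827) and without WT EDL replicate 2 (limma adjusted p = 0.0698). It was also lost with slide as a fixed block (limma adjusted p = 0.564), as was its Ts1Cje call. Slc25a20, the carnitine-acylcarnitine carrier, lay at 2.37, 2.45, 2.10 and 1.88 in Ts1Cje soleus, against 1.21, 1.23 and 1.43 in Ts1Cje EDL. The WT levels of Slc25a20 were 2.40, 2.20, 1.97 and 2.35 in soleus, against 1.65, 1.24 and 1.47 in EDL, and it was 1.88-fold higher in soleus of Ts1Cje mice and 1.71-fold higher in soleus of WT mice. Cpt2, the transferase of the inner membrane, lay at 5.18, 5.03, 5.12 and 4.98 in Ts1Cje soleus and 4.94, 5.14, 4.72 and 5.15 in WT soleus. Its EDL levels were 4.42, 4.13 and 4.60 in Ts1Cje and 4.56, 4.40 and 4.40 in WT mice, and no soleus array of either genotype overlapped them. Cpt1a, the isoform best known from liver, was not called (0.62 ± 0.36 in Ts1Cje and 0.48 ± 0.36 in WT mice), and its soleus and EDL arrays overlapped.

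Beta-oxidation removes carbon units from the acyl chain in a cycle of 4 reactions. Of its 12 genes here 10 were called higher in soleus in each genotype, 9 of them in both. Of all genes tested 12.4% were called higher in Ts1Cje mice and 9.77% in WT mice. The first reaction is done by acyl-CoA dehydrogenases that differ in chain length. Acadl, the long-chain enzyme, lay at 4.59, 4.91, 4.91 and 4.55 in Ts1Cje soleus, against 3.50, 3.34 and 3.80 in Ts1Cje EDL. In WT mice Acadl lay at 4.67, 4.81, 4.26 and 4.59 in soleus, against 3.94, 3.79 and 3.71 in EDL. The difference was 1.19 ± 0.16 in Ts1Cje mice (2.29-fold, adjusted p = 0.00011) and 0.77 ± 0.16 in WT mice (1.7-fold, adjusted p = 0.00264). Acadm, the medium-chain enzyme, was at 7.06, 7.04, 7.08 and 6.79 in Ts1Cje soleus, against 6.08, 5.98 and 6.42 in Ts1Cje EDL. The WT arrays of Acadm gave 7.01, 7.06, 6.79 and 7.08 in soleus, against 6.15, 6.11 and 6.38 in EDL, with soleus 1.78-fold higher in Ts1Cje and 1.71-fold higher in WT mice. Acadvl, the very-long-chain enzyme of the inner membrane, gave 7.72, 7.57, 7.70 and 7.55 in Ts1Cje soleus, against 7.08, 6.92 and 7.11 in Ts1Cje EDL. It gave 7.45, 7.60, 7.33 and 7.54 in WT soleus, against 7.19, 6.92 and 7.12 in WT EDL, and the differences of 0.60 ± 0.10 in Ts1Cje and 0.40 ± 0.10 in WT mice were called. The WT call of Acadvl was lost with same-numbered arrays as pairs (0.38, limma adjusted p = 0.0636) and without WT EDL replicate 2 (limma adjusted p = 0.0563). It was also lost with slide as a fixed block (limma adjusted p = 0.107). Acads, the short-chain enzyme, was called in WT mice (0.45 ± 0.13, adjusted p = 0.0178) and not in Ts1Cje mice (0.32 ± 0.13, adjusted p = 0.078). Its levels were 2.12, 2.18, 1.92 and 1.83 in Ts1Cje soleus, against 1.53, 1.75 and 1.80 in Ts1Cje EDL, and 2.23, 2.001, 2.06 and 2.09 in WT soleus, against 1.56, 1.47 and 1.89 in WT EDL, with no overlap in either genotype. The WT call of Acads was lost with the pairs (0.46, limma adjusted p = 0.0602), without WT EDL replicate 1 (limma adjusted p = 0.0666) and without WT EDL replicate 2 (limma adjusted p = 0.0826). It was also lost with slide as a fixed block and without the filter on dim probes.

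The reactions after the first on long chains belong to the mitochondrial trifunctional protein, whose alpha and beta subunits are encoded by Hadha and Hadhb. Hadha lay at 3.71, 3.80, 3.85 and 3.36 in Ts1Cje soleus, against 2.68, 2.74 and 3.01 in Ts1Cje EDL, and at 3.65, 3.49, 3.23 and 3.46 in WT soleus, against 2.90, 2.87 and 2.87 in WT EDL. Hadhb lay at 7.26, 7.36, 7.33 and 7.01 in Ts1Cje soleus, against 6.36, 6.13 and 6.37 in Ts1Cje EDL, and at 7.26, 7.27, 6.90 and 7.24 in WT soleus, against 6.46, 6.36 and 6.28 in WT EDL. Neither gene overlapped between the muscles, with differences in Ts1Cje mice of 0.87 ± 0.14 for Hadha and 0.95 ± 0.12 for Hadhb, and in WT mice of 0.58 ± 0.14 for Hadha and 0.80 ± 0.12 for Hadhb. The 2 genes are read in opposite directions from neighbouring starts on chromosome 5 of the GRCm38.p6 build (RefSeq), 273 bases apart, with Hadha on the minus strand and Hadhb on the plus strand. The sequence shown is the 250 bases before the start of Hadhb, most of the stretch between these starts, because it lies upstream of both subunit genes (chr5:30155003-30155252, plus strand, read toward Hadhb).
Hadhb and Hadha: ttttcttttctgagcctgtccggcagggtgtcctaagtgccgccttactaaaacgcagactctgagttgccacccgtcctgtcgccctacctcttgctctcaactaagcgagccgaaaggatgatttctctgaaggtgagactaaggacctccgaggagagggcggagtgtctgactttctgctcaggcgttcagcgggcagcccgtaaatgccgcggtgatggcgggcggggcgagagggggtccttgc
Its GC content was 58.8%, and neither AGGTCA nor CANNTG was found in the windows of Hadha or Hadhb, which run from 250 bases before to 50 bases after each start.

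Other enzymes of the cycle followed the same direction. Acaa2, a mitochondrial thiolase, lay at 7.78, 7.47, 7.60 and 7.34 in Ts1Cje soleus, against 6.28, 6.25 and 6.68 in Ts1Cje EDL. Acaa2 lay at 7.37, 7.40, 7.12 and 7.58 in WT soleus, against 6.45, 6.36 and 6.46 in WT EDL, so that soleus was 2.21-fold higher in Ts1Cje (adjusted p = 7.71e-05) and 1.92-fold higher in WT mice (adjusted p = 0.000366). Hadh, the short-chain hydroxyacyl-CoA dehydrogenase, gave 5.59, 5.37, 5.59 and 5.46 in Ts1Cje soleus, against 4.66, 4.38 and 4.86 in Ts1Cje EDL. For WT mice Hadh gave 5.02, 5.36, 5.14 and 5.18 in soleus, against 4.23, 4.57 and 4.51 in EDL, and the difference was 0.87 ± 0.13 in Ts1Cje and 0.74 ± 0.13 in WT mice. Decr1 and Eci2 handle the double bonds of unsaturated fatty acids. Decr1 was at 6.16, 5.89, 6.11 and 6.11 in Ts1Cje soleus, against 5.19, 4.89 and 5.48 in Ts1Cje EDL, and at 5.80, 6.18, 5.64 and 5.84 in WT soleus, against 5.04, 5.12 and 5.02 in WT EDL. Eci2 was at 5.59, 5.48, 5.45 and 5.24 in Ts1Cje soleus, against 4.99, 4.58 and 4.86 in Ts1Cje EDL, and at 5.34, 5.32, 4.90 and 5.50 in WT soleus, against 5.05, 4.76 and 4.64 in WT EDL, where the WT groups overlapped. The Eci2 difference was 0.63 ± 0.16 in Ts1Cje mice (adjusted p = 0.00994) and 0.45 ± 0.16 in WT mice (adjusted p = 0.0495), and the WT call was lost in 7 of 14 other settings, the pairs among them (0.37, limma adjusted p = 0.0652). It held without WT EDL replicate 1 (limma adjusted p = 0.0353) and without WT soleus replicate 3 (limma adjusted p = 0.0134) and was lost without any of the 5 other WT arrays (limma adjusted p of 0.0937 to 0.168).

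Echs1, the enoyl-CoA hydratase of short chains, lay at 4.91, 5.17, 5.35 and 5.16 in Ts1Cje soleus, against 4.65, 4.57 and 4.70 in Ts1Cje EDL, and was called there (0.51 ± 0.12, adjusted p = 0.0068). In WT mice Echs1 lay at 4.94, 5.34, 5.01 and 5.02 in soleus, against 4.80, 4.85 and 4.79 in EDL, without a call (0.26 ± 0.12, adjusted p = 0.118). Acaa1a is the thiolase of peroxisomes, not of mitochondria. It was not called in either genotype, with a difference of 0.16 ± 0.10 in Ts1Cje and -0.016 ± 0.10 in WT mice, and its soleus and EDL arrays overlapped.

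The electron transfer flavoprotein takes up the electrons of the acyl-CoA dehydrogenases, and Etfdh passes them to ubiquinone. Etfdh lay at 5.50, 5.74, 5.72 and 5.32 in Ts1Cje soleus, against 4.79, 4.51 and 4.73 in Ts1Cje EDL, and at 5.47, 5.60, 5.21 and 5.64 in WT soleus, against 4.92, 4.53 and 4.75 in WT EDL. Etfa, the alpha subunit, lay at 6.47, 6.55, 6.68 and 6.29 in Ts1Cje soleus, against 5.77, 5.55 and 5.81 in Ts1Cje EDL, and at 6.43, 6.63, 6.12 and 6.40 in WT soleus, against 5.86, 5.81 and 5.74 in WT EDL. Both were called in both genotypes without overlap: soleus was higher in Ts1Cje mice by 0.89 ± 0.14 for Etfdh and 0.79 ± 0.13 for Etfa, and in WT mice by 0.75 ± 0.14 for Etfdh and 0.59 ± 0.13 for Etfa. Etfb, the beta subunit, was called in Ts1Cje mice (0.54 ± 0.12, adjusted p = 0.00468) and not in WT mice (0.24 ± 0.12, adjusted p = 0.156). Its levels were 7.88, 7.66, 7.86 and 7.67 in Ts1Cje soleus, against 7.23, 7.06 and 7.39 in Ts1Cje EDL, and 7.31, 7.74, 7.43 and 7.59 in WT soleus, against 7.23, 7.32 and 7.29 in WT EDL, where soleus replicate 1 overlapped the EDL arrays. Of 2 other Etfb probes, 1 gave 0.56 in Ts1Cje and 0.32 in WT mice, past the threshold in both (limma adjusted p over probes of 0.00128 and 0.035), and the other gave -0.021 in Ts1Cje and 0.063 in WT mice.

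The promoter windows of RefSeq (GRCm38.p6, 250 bases before to 50 after a start) covered 28 of the 32 genes with 34 windows. AGGTCA, the half-site of PPAR, ERR and related nuclear receptors, was searched on both strands and was found in at least 1 window of 7 of the 28 genes (25.0%: Acadm, Acadvl, Acsl6, Cd36, Cpt1a, Echs1 and Ucp3). It was found for 18.1% of the 27025 genes with a window. AGGTCA repeated after 1 base, the paired form known as DR1, was found in 0 of the 28 and in 0.0481% of all genes. TCAAGGTCA, the extended site of ERR, contains AGGTCA and was found in 1 of the 28, Acsl6, and in 0.466% of all genes. CANNTG, the E-box of MyoD and related factors, was found in 18 of the 28 (64.3%) and in 74.99% of all genes. These are matches of letters in short windows, and binding was not measured. Of these, 3 sequences are shown, each the 250 bases before a start: Fabp3, the gene called at the smallest adjusted p in both genotypes, with CANNTG in capitals (chr4:130308488-130308737, plus strand), Acsl6, the gene called lower in soleus, with AGGTCA and TCAAGGTCA on either strand in capitals (chr11:54303574-54303823, plus strand, the first of its starts), and Ucp3, one of the most variable genes, with its 2 AGGTCA matches in capitals (chr7:100472741-100472990, plus strand).
Fabp3: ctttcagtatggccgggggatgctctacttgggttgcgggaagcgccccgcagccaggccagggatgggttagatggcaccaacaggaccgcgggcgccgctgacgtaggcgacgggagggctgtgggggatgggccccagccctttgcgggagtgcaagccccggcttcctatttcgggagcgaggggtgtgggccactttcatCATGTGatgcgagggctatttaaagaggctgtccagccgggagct
Acsl6: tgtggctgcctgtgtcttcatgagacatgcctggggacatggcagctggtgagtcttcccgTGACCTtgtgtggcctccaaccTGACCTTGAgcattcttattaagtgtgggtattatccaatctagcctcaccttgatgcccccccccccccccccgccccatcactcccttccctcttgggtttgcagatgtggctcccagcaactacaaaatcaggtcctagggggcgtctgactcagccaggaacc
Ucp3: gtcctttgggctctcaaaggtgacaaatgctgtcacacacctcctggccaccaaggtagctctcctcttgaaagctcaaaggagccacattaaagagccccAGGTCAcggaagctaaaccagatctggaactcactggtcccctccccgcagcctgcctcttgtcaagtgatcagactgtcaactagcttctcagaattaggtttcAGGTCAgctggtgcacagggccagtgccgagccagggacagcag

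Pdk4, Ucp3 and Acot2, 3 of the 4 fuel switch genes, had the widest spread within groups of the 32. The median within-group SD over all genes tested was 0.225 on the log2 scale. Pdk4, the kinase that shuts pyruvate dehydrogenase and so spares glucose, had an SD of 1.90, above 99.96% of genes, and spanned 38.7-fold over the 14 arrays. Its levels were 7.96, 8.40, 6.16 and 6.59 in Ts1Cje soleus and 8.24, 4.75, 6.14 and 7.69 in WT soleus, against 8.02, 3.22 and 6.73 in Ts1Cje EDL and 8.09, 3.13 and 4.77 in WT EDL. All 4 groups overlapped, and the soleus minus EDL difference of 1.29 ± 1.28 in Ts1Cje and 1.38 ± 1.28 in WT mice was not called. Ucp3, an uncoupling protein of the inner membrane in muscle, had an SD of 1.77, above 99.9% of genes, and spanned 56.3-fold. It lay at 2.17, 2.19, 0.37 and 0.73 in Ts1Cje soleus and 2.53, -2.31, 0.39 and 1.99 in WT soleus, against 3.32, 0.21 and 1.45 in Ts1Cje EDL and 3.50, -0.85 and 0.99 in WT EDL. WT soleus replicate 2 was the lowest of all 14 arrays for Ucp3, and EDL replicate 1 of WT mice the highest.

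Acot2, a mitochondrial thioesterase that splits acyl-CoA, had an SD of 0.80, above 98.1% of genes. Acot2 gave 0.81, 1.47, 0.60 and -0.83 in Ts1Cje soleus, against -0.76, -1.93 and -1.81 in Ts1Cje EDL, and 1.13, -0.14, -0.60 and 1.13 in WT soleus, against -0.55, -1.25 and -1.48 in WT EDL. It was called in Ts1Cje mice (2.01 ± 0.55, 4.03-fold, adjusted p = 0.0151), although soleus replicate 4 fell within the EDL range, and not in WT mice (1.47 ± 0.55, adjusted p = 0.0594). The Ts1Cje call of Acot2 was lost without EDL replicate 2 (limma adjusted p = 0.0596) and without EDL replicate 3 (limma adjusted p = 0.0515). In WT mice Acot2 was called with the pairs (1.22, limma adjusted p = 0.0375) and without soleus replicate 3 (1.80, limma adjusted p = 0.0303). Cpt1a had an SD of 0.52, Lipe of 0.48 and Mlycd, the decarboxylase that removes the CPT1 inhibitor malonyl-CoA, of 0.40, above 91.6%, 89.3% and 83.6% of genes. For the enzymes of beta-oxidation the SD ran from 0.10 for Acaa1a and 0.11 for Acadvl, above 6.00% and 7.85% of genes, to 0.20 for Acadl and 0.21 for Eci2, above 43.3% and 45.2% of genes.

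**Figure D3:**
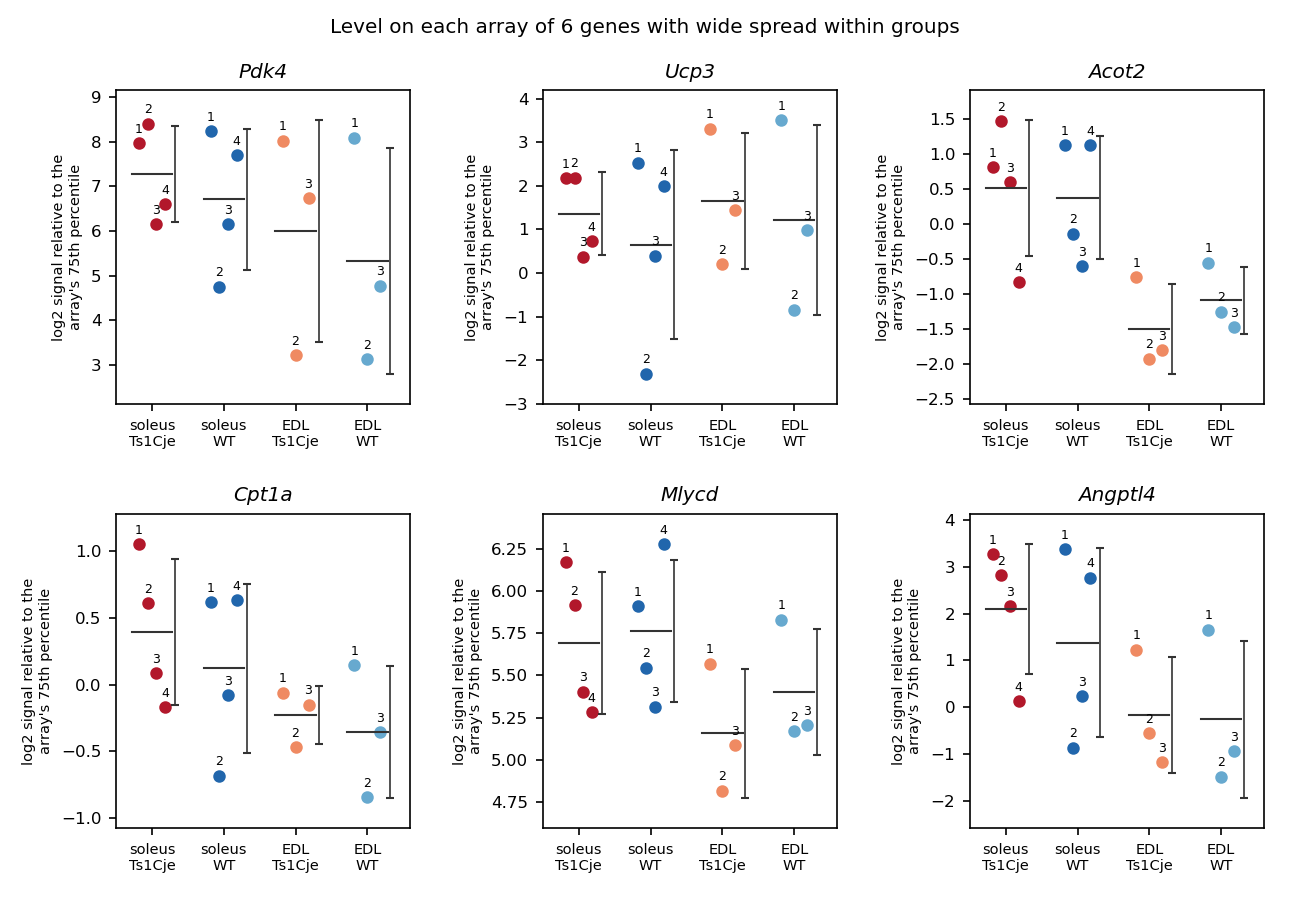
Level of 6 genes on each of the 14 arrays, as log2 signal relative to the 75th percentile of the array, for soleus and EDL of Ts1Cje and WT mice; numbers are replicates, horizontal lines are group means and error bars are SD. In EDL, replicate 1 is the highest and replicate 2 the lowest for Pdk4 and Ucp3 in both genotypes, and in WT soleus replicate 2 is the lowest for Pdk4, Ucp3, Cpt1a and Angptl4.

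Soleus arrays with high Pdk4 also had high Ucp3. Over the 8 soleus arrays Pearson's r between Pdk4 and Ucp3 was 0.97 and Spearman's rho 0.95 (exact permutation test, two-sided, p = 0.000198 and 0.00114, adjusted p = 0.00198 and 0.00926). Without the 2 arrays farthest from the median of Pdk4, r was 0.998 over 6 soleus arrays, and within slide 2 it was 0.97 over 7 soleus arrays. Cpt1a went with Pdk4 at r = 0.92 (exact permutation, p = 0.00419, adjusted p = 0.0105) and rho = 0.71 (exact permutation, p = 0.0576, adjusted p = 0.096). Angptl4, the secreted inhibitor of lipoprotein lipase and no member of the 32, had r = 0.89 and rho = 0.86 (exact permutation, p = 0.00295 and 0.0107, adjusted p = 0.00984 and 0.0268). Without the same 2 arrays r was 0.88 for Cpt1a and 0.81 for Angptl4, and within slide 2 it was 0.95 and 0.88. For Acot2 r was 0.73 and for Mlycd 0.71 (exact permutation, p = 0.0455 and 0.0485, adjusted p = 0.0693 for both). All adjusted p-values of these relations were taken over the 10 relations computed in both muscles. They thus depend on p-values of EDL arrays that are not independent, and no verdict is drawn from them. The 5 partners were chosen after their values were seen, so the p-values describe these arrays and are no independent test. The soleus arrays are of both genotypes, and the labels speak of littermate pairs within each muscle. The permutation took the 8 soleus arrays as independent, so its p-values leave such pairs out. In EDL same-numbered arrays were taken as pairs, so that the 6 arrays are not independent and no correlation is given. There replicate 1 had the highest and replicate 2 the lowest Pdk4, Ucp3 and Cpt1a of the 3 arrays in each genotype.

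Within groups the same array was often the lowest or the highest for most of the 32 genes. WT soleus replicate 3 was the lowest of its 4 arrays for 23 of the 32 genes, where it was the lowest for 21.3% of all genes tested, and it was the highest for 0. Ts1Cje soleus replicate 4 was the lowest of its 4 arrays for 21 of the 32, against 26.9% of all genes. Ts1Cje EDL replicate 2 was the lowest of its 3 arrays for 26 of the 32, against 39.9% of all genes, and Ts1Cje EDL replicate 3 was the highest for 21, against 42.5% of all genes. Within the WT EDL group, replicate 1 was the highest for 18 of the 32, against 30.6% of all genes. Slow fibre markers also differed among EDL arrays: Myh7, the slow myosin heavy chain, lay at 3.07, 2.37 and 5.65 in Ts1Cje EDL and 6.44, -0.021 and 5.74 in WT EDL, with WT replicate 2 the lowest, and its part in the levels of the 32 genes was not tested.

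No gene of the 32 was called between the genotypes. In soleus 0 of 32 passed the adjusted threshold, where 0.247% of all genes did, and 4 of 32 had an unadjusted p under 0.05, where 13.6% of all genes did. In EDL 0 of 32 passed, where 0.00706% of all genes did, and 0 of 32 had an unadjusted p under 0.05, where 2.87% of all genes did. The median difference of the 32 genes, Ts1Cje minus WT, was 0.16 in soleus, beside 0.071 over all genes, and -0.054 in EDL, beside -0.00013 over all genes. Both medians changed when single arrays were left out. Without WT soleus replicate 3 the soleus median was 0.051, beside 0.072 over all genes, and without each other soleus array it was 0.11 to 0.22. The EDL median was 0.034 without Ts1Cje EDL replicate 2, 0.0013 without WT EDL replicate 1 and -0.10 to -0.057 without each other EDL array. The difference was above 0 for 28 of 32 genes in soleus, where it was for 62.7% of all genes, and for 10 of 32 in EDL, where it was for 50% of all genes. The same count was 12 of 12 in soleus and 1 of 12 in EDL for slow fibre markers. It was 7 of 8 and 1 of 8 for adipocyte markers, and 6 of 6 and 1 of 6 for red cell markers. For the mitochondrial reference genes it was 16 of 19 in soleus and 6 of 19 in EDL. Macrophage markers gave 7 of 8 in both muscles, and endothelial markers 4 of 9 in soleus and 6 of 9 in EDL. Skeletal muscle markers gave 3 of 7 in soleus and 4 of 7 in EDL, and fast fibre markers 2 of 12 and 9 of 12. The part of these lists in the values of the 32 genes was not tested. The median SE was 0.14 in soleus and 0.16 in EDL.

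The 4 soleus genes with an unadjusted p under 0.05 were Acaa1a, Hadh, Acsl6 and Etfb. Acaa1a lay at 5.74, 5.53, 5.72 and 5.42 in Ts1Cje soleus, against 5.36, 5.37, 5.27 and 5.34 in WT soleus, a difference of 0.27 ± 0.093 (limma adjusted p = 0.29). Hadh lay at 5.59, 5.37, 5.59 and 5.46 in Ts1Cje soleus, against 5.02, 5.36, 5.14 and 5.18 in WT soleus, a difference of 0.33 ± 0.12 (limma adjusted p = 0.313). In both of these genes every Ts1Cje array was above every WT array, which held for 6.12% of all genes tested, and for no other of the 32. Acsl6 lay at 0.54, 0.39, 0.36 and 0.61 in Ts1Cje soleus, against -0.22, 0.44, 0.20 and -0.16 in WT soleus, with overlap. Etfb lay at 7.88, 7.66, 7.86 and 7.67 in Ts1Cje soleus, against 7.31, 7.74, 7.43 and 7.59 in WT soleus, also with overlap. The Acsl6 difference was 0.41 ± 0.17 (adjusted p = 0.342) and the Etfb difference 0.25 ± 0.11 (adjusted p = 0.351). With the mean of the probes of Acsl6 its difference turned to -0.16. With slide as a fixed block 3 of 32 soleus genes had an unadjusted p under 0.05, and within slide 2 alone 1 of 32 did, with a median of 0.12.

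**Figure D4:**
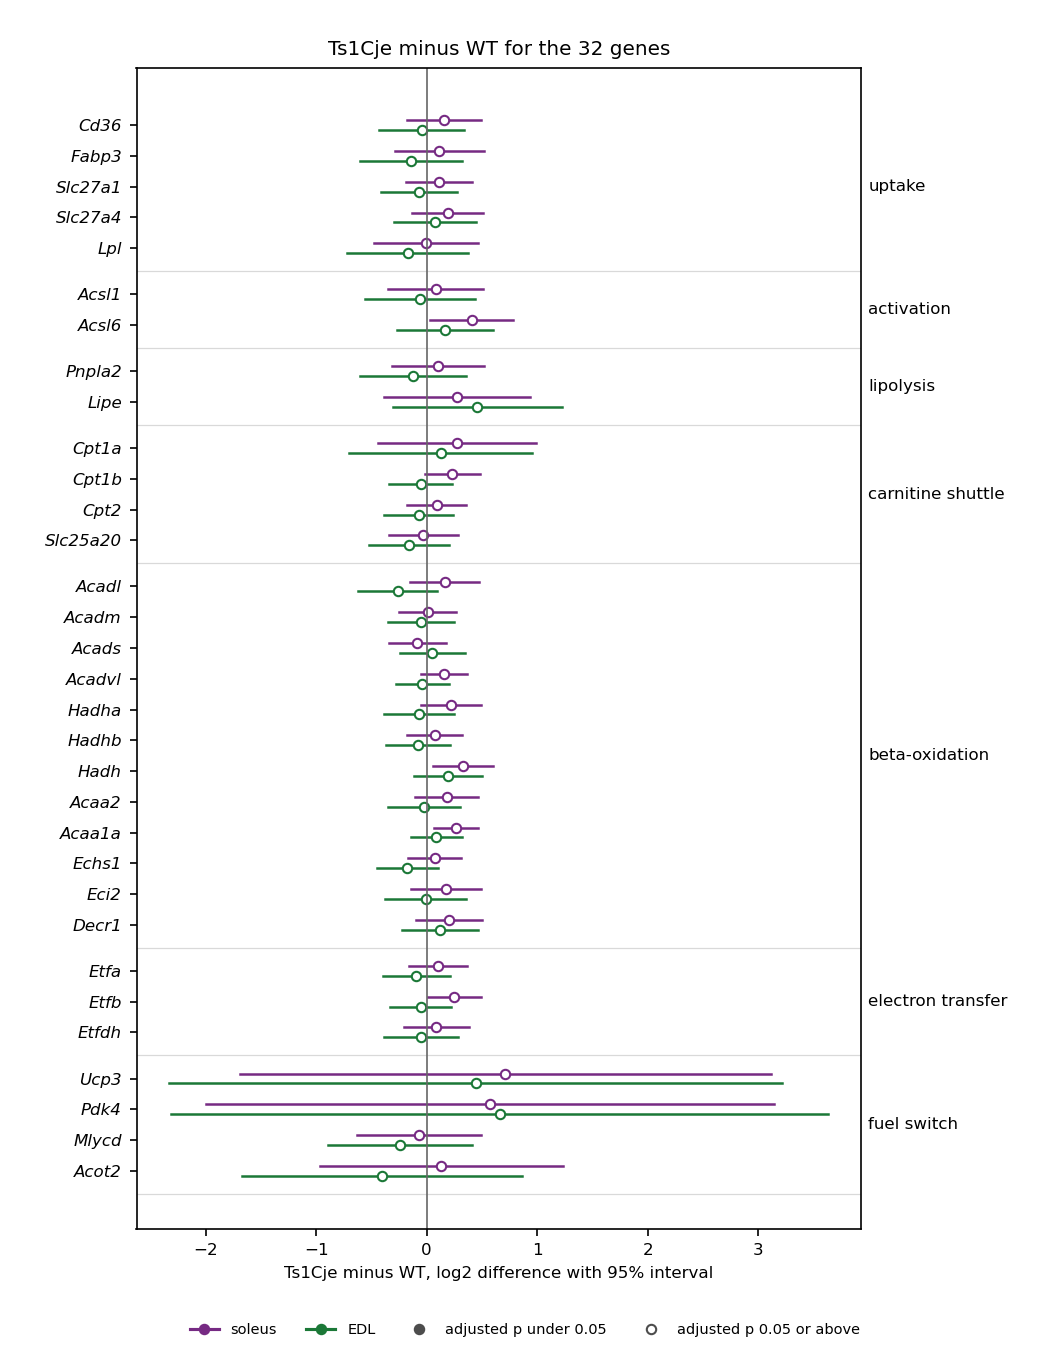
Ts1Cje minus WT difference of each of the 32 genes in soleus (purple) and EDL (green), on a log2 scale with 95% intervals, grouped by role; open points did not pass the adjusted p threshold of 0.05. All 64 points are open, and most soleus points lie to the right of the EDL point of the same gene.

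In EDL Echs1 was the gene whose Ts1Cje arrays, 4.65, 4.57 and 4.70, were all below the WT arrays, 4.80, 4.85 and 4.79, which held for 2.77% of all genes tested and for 1 of the 32, and its difference was -0.17 ± 0.13 (limma adjusted p = 1). Acadl gave 3.50, 3.34 and 3.80 in Ts1Cje EDL, against 3.94, 3.79 and 3.71 in WT EDL, a difference of -0.26 ± 0.17 with overlap. The summed level of the 12 slow fibre markers, as signal relative to the 75th percentile, ranged from 141 to 464 in Ts1Cje EDL and from 113 to 567 in WT EDL, and its part in the EDL values was not tested. For the variable genes the intervals of the genotype difference were wide: for Pdk4 -2.001 to 3.15 in soleus and -2.31 to 3.63 in EDL, and for Ucp3 -1.69 to 3.11 in soleus and -2.33 to 3.21 in EDL. As the mean over both muscles, 0 of 32 genes passed the adjusted threshold, where 0.29% of all genes did, and 2 of 32, Hadh (0.26 ± 0.095) and Acaa1a (0.18 ± 0.071), had an unadjusted p under 0.05, where 9.46% of all genes did.

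Whether the genotype difference itself differed between the muscles was tested as an interaction. None of the 32 genes passed the adjusted threshold, where 0% of all genes did, and 0 of 32 had an unadjusted p under 0.05, where 3.2% of all genes did. The median of the 32 was 0.18, beside 0.067 over all genes. It was 0.084 without Ts1Cje EDL replicate 2 and 0.087 without WT soleus replicate 3, beside 0.045 and 0.067 over all genes, and 0.11 without WT EDL replicate 1. The interaction was above 0 for 29 of the 32 genes, where it was for 61.8% of all genes. It was above 0 for 12 of 12 slow fibre, 8 of 8 adipocyte and 6 of 6 red cell markers, and for 16 of 19 mitochondrial reference genes. For endothelial markers the count was 6 of 9, for macrophage markers 3 of 8, for skeletal muscle markers 3 of 7 and for fast fibre markers 1 of 12. Among the 32 genes the smallest p was that of Acadl, with an interaction of 0.43 ± 0.22 (limma adjusted p = 0.987). Called between muscles in Ts1Cje mice alone were 4 genes (Echs1, Etfb, Acot2 and Pnpla2), and in WT mice alone 1 gene (Acads). None of these was shown to differ between the genotypes. The 7 genes called in neither were Mlycd, Cpt1a, Acaa1a, Lipe, Pdk4, Slc27a4 and Ucp3. In soleus 3 of 12 fast fibre markers were called lower in Ts1Cje than in WT mice: Myh4, the fast myosin heavy chain of type 2B fibres (-4.12 ± 0.53), Pvalb (-1.86 ± 0.21) and Actn3 (-1.95 ± 0.28), while 0 of 12 slow fibre markers were called. The part of these fibre markers in the values of the 32 genes was not tested.

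Among 70 other genes of lipid handling, ketone use and fuel control, 68 were tested. In soleus against EDL 19 were called higher and 12 lower in Ts1Cje mice, where 12.4% of all genes were called higher and 17.5% lower. In WT mice 14 were called higher and 10 lower, where 9.77% of all genes were called higher and 20.1% lower. The share called lower was close to that of all genes in Ts1Cje mice and below it in WT mice. Medians were 0.27 in Ts1Cje and 0.12 in WT mice. Bdh1, which oxidises a ketone body, was 12.2-fold higher in soleus of Ts1Cje mice and 10.8-fold higher in soleus of WT mice (adjusted p = 0.000252 and 0.000397). Dgat2, which makes triglyceride, was 6.28-fold higher in soleus of Ts1Cje mice and 5.26-fold higher in soleus of WT mice. Eci1, a further enzyme for unsaturated fatty acids, was 1.83-fold higher in soleus of Ts1Cje mice and 1.52-fold higher in soleus of WT mice. Pparg, a nuclear receptor best known from fat, differed by 0.84 ± 0.12 in Ts1Cje and 0.52 ± 0.12 in WT mice.

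Lower in soleus were subunits of the AMP-activated kinase. Prkag3, the gamma subunit of glycolytic fibres, differed by -3.18 ± 0.21 in Ts1Cje mice (adjusted p = 5.26e-07) and -2.48 ± 0.21 in WT mice (adjusted p = 5.51e-06). Prkaa2, a catalytic subunit, differed by -1.08 ± 0.12 in Ts1Cje and -1.09 ± 0.12 in WT mice. Acad11, an acyl-CoA dehydrogenase, differed by -0.65 ± 0.10 in Ts1Cje and -0.71 ± 0.10 in WT mice. The kinases of pyruvate dehydrogenase split: Pdk1 was higher in soleus, by 1.47 ± 0.18 in Ts1Cje and 1.012 ± 0.18 in WT mice, and Pdk2 lower, by -0.56 ± 0.09 in Ts1Cje and -0.56 ± 0.09 in WT mice. The regulators Ppara, Ppard and Ppargc1a and the carboxylase Acacb were not called between the muscles in either genotype. Ppara differed by 0.64 ± 0.47 in Ts1Cje and 0.67 ± 0.47 in WT mice, and Ppargc1a by -0.017 ± 0.38 in Ts1Cje and -0.11 ± 0.38 in WT mice. Ppard gave -0.13 ± 0.12 in Ts1Cje and -0.27 ± 0.12 in WT mice, and Acacb 0.18 ± 0.12 in Ts1Cje and -0.086 ± 0.12 in WT mice. Plin5, a lipid droplet protein of oxidative muscle, was called in Ts1Cje mice (1.33 ± 0.42, adjusted p = 0.0302) and not in WT mice (1.07 ± 0.42, adjusted p = 0.0716), and Angptl4 was not called in either. Between the genotypes limma called 0 of the 68 in EDL, in soleus, as the mean or as the interaction. An unadjusted p under 0.05 was found for 8 in soleus, where 13.6% of all genes had one, and for 0 in EDL, where 2.87% did. It was found for 5 as the mean, where 9.46% of all genes had one, and for 3 in the interaction, where 3.2% did.

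Markers of fat cells were higher in soleus as well. Of 10 adipocyte markers 8 were tested, and 8 were called higher in soleus in Ts1Cje mice and 4 in WT mice. Plin1 and Cidec, among these 8, were tested only because their probes passed on all soleus arrays. That filter favours a higher call in soleus, so their calls are no independent support. The summed level of all 10, as signal relative to the 75th percentile, ranged from 144 to 240 in Ts1Cje soleus and from 110 to 183 in WT soleus, against 74.4 to 90.5 in Ts1Cje EDL and 73.3 to 123 in WT EDL. Adipoq was well above background on all 8 soleus arrays and 5 of 6 EDL arrays, Plin1 on all 8 soleus arrays and 1 of 6 EDL arrays, and Lep on 1 of 14 arrays. Fabp4 differed by 0.74 ± 0.11 in Ts1Cje and 0.46 ± 0.11 in WT mice. It alone made up most of the summed level on every array, with log2 levels of 6.07 to 6.27 in Ts1Cje EDL and 6.68 to 7.09 in Ts1Cje soleus. Cd36, Lpl, Acsl1, Pnpla2 and Lipe are also genes of fat cells, and the part of fat cells in their soleus levels was not tested. Endothelial markers gave 2 higher calls of 9 in Ts1Cje and 0 of 9 in WT mice, and Pecam1 differed by 0.14 ± 0.21 in Ts1Cje and 0.29 ± 0.21 in WT mice without a call. Macrophage markers gave 2 higher calls of 8 in Ts1Cje and 3 of 8 in WT mice. Among all genes tested 12.4% were called higher in soleus in Ts1Cje and 9.77% in WT mice.

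**Figure D5:**
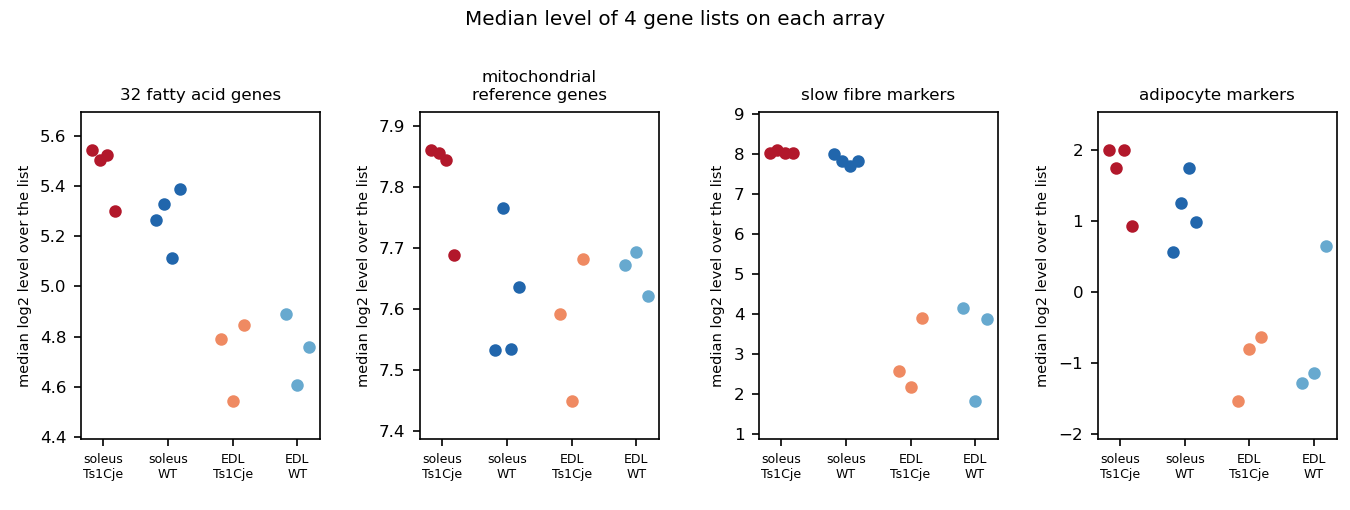
Median log2 level over 4 gene lists on each of the 14 arrays, for soleus and EDL of Ts1Cje and WT mice: the 32 fatty acid genes, 19 mitochondrial reference genes, 12 slow fibre markers and 10 adipocyte markers. The medians of the 32 genes lie between 5.11 and 5.54 on soleus arrays and between 4.54 and 4.89 on EDL arrays without overlap, while those of the mitochondrial reference genes overlap between the muscles.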

How the data were processed

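The genes and lists were chosen with earlier results of these data known. Per the labels' protocols, 25 ng of RNA was labelled with Cy3 for 1-colour Agilent arrays. The deposited scanner files hold background-subtracted intensity from Agilent Feature Extraction (11.5.1.1 per the file headers, 9.1 per the submitters' processing notes). The authors' deposited table holds log2 values (column medians -0.19 to 0.25) whose steps no header states. Its columns correlated at 0.999886 or above with the scanner values scaled to the 75th percentile and centred per probe on the median over arrays, and it served as an alternative. Spots of 1 probe were averaged, control spots left out, and log2 of the intensity was taken relative to the 75th percentile of the array (62.4 to 144 units). Symbols were updated through gene IDs. Probe positions are mm9 per the file headers.

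With R 4.3.3, limma 3.58.1 fitted 4 group means to 14 arrays (10 residual and 2.80 prior degrees of freedom), two-sided, with Benjamini-Hochberg adjustment over 14161 genes. Intervals are 95%. Of the 32 genes 11 have several probes. The fit was tested on simulated data. The labels speak of littermate pairs within each muscle. The deviations of same-numbered arrays correlated at 0.40, 0.12 and 0.31 in EDL and at -0.12, -0.29, 0.0082 and -0.13 in soleus, between Ts1Cje and WT. Between muscles they correlated at -0.090, -0.16 and 0.12 in Ts1Cje mice and at 0.51, 0.41 and 0.33 in WT mice. Numbers were therefore taken as pairs in EDL, and between muscles in WT mice. The main fit held no term for pairs, so its SEs and p-values leave them out. Pairs entered the fit only in the setting with the replicate block. The number of arrays limits the precision. The named genes were all 32, up to 6 called genes of smallest p per muscle comparison among 70 other pathway genes, and fixed regulators and markers. The 5 genes related to Pdk4, and Pvalb and Actn3, were named after their values were seen. Of 16 other settings, 15 applied to calls between muscles in Ts1Cje and 14 in WT mice, and calls were also recomputed without each array.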

Additional observations from a re-analysis of the deposited data

Results flagged for a closer look

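In soleus, where each genotype has 4 arrays, 2 of 64 gene and group pairs had 1 array far from the other 3 by Dixon's test, which flags about 1 in 20 groups by chance. Ts1Cje soleus replicate 4 had Acadm at 6.79, below 7.04 to 7.08 on the other 3 arrays. WT soleus replicate 3 had Hadhb at 6.90, below 7.24 to 7.27 on the other 3. Both arrays were also the lowest of their group for most of the 32 genes.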

How the results depend on the processing

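The count of genes called between the genotypes stayed at 0 of 32 in all 4 genotype comparisons under each of the settings run and without each array. Between the muscles, leaving out 1 array gave 22 to 24 called genes in Ts1Cje mice and 17 to 22 in WT mice. The settings other than the slide block and the single slide kept both counts within 1.5 times of the values in the report. With slide as a fixed block, 0 genes were called lower in either genotype, 6 were called in WT mice, 6 of them higher, and the WT median was 0.75. Within slide 1, 9 were called in Ts1Cje mice, 9 higher and 0 lower. These fits rest on 1 soleus array of slide 1. Quantile normalization gave a WT median of 0.78. With the replicate block, 24 genes were called higher and 1 lower in Ts1Cje mice, and 17 higher and 1 lower in WT mice, and it changed the calls between the genotypes for 0 of 32 genes. Between the muscles in Ts1Cje mice Cpt1a and Mlycd were called with that block. Numbers were not taken as pairs there, because deviations of same-numbered arrays correlated at -0.090, -0.16 and 0.12. These few values cannot show whether the arrays are paired. With the mean of a gene's probes the Cpt2 call was lost in both genotypes (0.46 in Ts1Cje and 0.54 in WT mice). Of all genes, 25 were called higher and 10 lower in soleus between the genotypes. These counts were 3 and 4 with the replicate block, 12 and 3 with normexp, 14 and 4 with the slide block, 4 and 2 without the filter on dim probes, 17 and 6 with the mean of a gene's probes, 2 and 2 with only the soleus groups, and 1 and 0 within slide 2. Between muscles in WT mice 1384 of all genes were called higher and 2840 lower, 786 and 1497 with normexp and 386 and 985 with the slide block.

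Sign changes of uncalled values that moved by more than their SE follow. Smaller ones numbered 15 of 480 values in soleus and 20 of 416 in the mean under other settings, and 30 of 192 in EDL, 24 of 256 in soleus and 57 of 448 in the mean without an array. In the interaction they numbered 3 of 416 under other settings and 24 of 448 without an array. Between muscles they numbered 2 of 480 in Ts1Cje and 5 of 448 in WT mice under other settings. Without an array they numbered 2 of 224 in Ts1Cje and 6 of 224 in WT mice. The sign turned for Acaa1a between muscles in WT mice (0.17 with normexp, 0.17 with quantile normalization and 0.17 with the slide block). It also turned with the slide block in WT mice for Echs1 (-0.056) and Pnpla2 (-0.073). With the mean of a gene's probes the soleus genotype difference was -0.16 for Acsl6, -0.12 for Acsl1 and -0.18 for Cpt2. The mean over muscles was then -0.036 for Etfb and -0.14 for Cpt2, and the interaction -0.45 for Acsl6 and -0.074 for Cpt2. Without 1 array at a time the EDL genotype difference of Fabp3 ranged from -0.34 to 0.076, and the soleus minus EDL difference of Pdk4 in Ts1Cje mice from -0.098 to 2.31, with both signs turned without EDL Ts1Cje replicate 2. The cause of these changes was not tested.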
